A study of Mus musculus with 50 samples.

Results

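The genes described here are 10 transcription factors of the embryonic spinal cord that are used before and during the birth of motor neurons, namely Olig1, Olig2, Neurog2, Neurod4, Hes5, Sox1, Sox2, Pax6, Nkx6-1 and Nkx6-2. They were taken as a list of symbols, and each of the 10 matched 1 of the 55385 genes counted in every RNA library. Motor neurons were profiled by RNA-seq in 28 libraries and by ATAC-seq, which cuts accessible DNA with the transposase Tn5, in 22 libraries. The study asked how gene expression and chromatin accessibility of spinal motor neurons change from birth to old age, and how far neurons made from stem cells follow.

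All mice were on C57BL/6. At E10.5 (E for embryonic day) GFP-positive cells were sorted from the spinal cords of HB9-GFP embryos, in which the reporter follows the motor neuron gene Hb9 (Mnx1), and whole-cell RNA was sequenced from 3 pools of embryos. At E13.5 (2 RNA libraries), postnatal day 4 (P4, 3), P13 (2), P21 (3), P56 (3) and 2 years (2yr, 2), nuclei were pulled down from pooled Chat-Cre;SUN1-GFP-3xMYC mice. In these mice Cre is driven by Chat, the gene of acetylcholine synthesis, and any cell that ever used Chat carries a tagged nuclear membrane, so cholinergic neurons other than motor neurons can be in the pools. In culture, motor neurons were differentiated from stem cells of the same Chat-Cre;SUN1-GFP-3xMYC genotype and then plated on glia from newborn mouse cortex. They were taken at day in vitro 0 (DIV0, 2 RNA libraries), DIV7 (2), DIV28 (3) and DIV28 after growth in tetrodotoxin, a sodium channel blocker that silences action potentials (DIV28+TTX, 1 µM, 3), always as nuclear RNA. The paper's methods take nuclei from embryoid bodies, the clusters of differentiating cells before plating, and from the co-cultures. DIV0 can thus differ from DIV7 and DIV28 in glia and preparation as well as in time, and these cannot be told apart. ATAC-seq was done in 2 libraries of each of the same 11 groups, on sorted cells at E10.5 and on sorted nuclei elsewhere. By the paper's methods, E10.5 cells came from brachial, thoracic and lumbar cord, and RNA of later ages from brachial and lumbar cord only. E10.5 also differs from every other group in the mouse line and in the use of whole-cell RNA as well as in age. These differences cannot be told apart. In pools of cells, fewer cells that use a gene and less RNA per cell cannot be told apart either.

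In the ventral neural tube, dividing progenitors are sorted into domains by homeodomain and bHLH factors that answer to Sonic hedgehog. The domain that makes motor neurons carries Olig2 together with Nkx6-1 and Pax6, and later makes oligodendrocytes. SoxB1 factors and the Notch target Hes5 hold cells in the progenitor state, and proneural factors such as Neurog2 drive them out of the cycle and into the neuronal state, where Neurod4 acts a step later. As a rule these factors are shut off as a neuron matures.

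One RNA library is titled DIV0 replicate 3 but was handled as DIV28 replicate 3. Over 15561 genes its log2 normalised counts correlated with those of DIV0 at Pearson r of 0.733 and 0.735, and with those of DIV28 at 0.937 and 0.936. Results that rest on it are given without it, or as titled, where that changes a call. RNA libraries held between 2704642 counts (DIV7 replicate 1) and 21823492 counts (DIV28 replicate 2). The summed level of 8 motor neuron markers, among them Chat and Slc5a7, lay between 1587 and 9625 normalised counts in all libraries, and no marker was absent from any group. Markers of other cells moved with age. The 10 blood and vessel markers summed to 29.7 to 51.9 normalised counts at E10.5 and 19086 to 26961 at E13.5, and the 13 oligodendrocyte markers to 606 to 637 at E13.5 and 12321 to 12352 at P13.

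The promoters of 4 members show the range among the genes. Hes5 is shown for its pair of cores for RBPJ, the DNA-binding partner of Notch, Neurog2 and Neurod4 as proneural genes that differed in accessibility, and Olig2 as the motor neuron progenitor factor. Each stretch ends before the first start of the gene in either the files' annotation or RefSeq, reads 5′ to 3′ along the gene, and comes from RefSeq on GRCm38.p6, whose coordinates are those of mm10. Capitals mark TGGGAA on either strand in Hes5 and CG in the other 3.

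Hes5 promoter, chr4:154960673-154960922, plus strand: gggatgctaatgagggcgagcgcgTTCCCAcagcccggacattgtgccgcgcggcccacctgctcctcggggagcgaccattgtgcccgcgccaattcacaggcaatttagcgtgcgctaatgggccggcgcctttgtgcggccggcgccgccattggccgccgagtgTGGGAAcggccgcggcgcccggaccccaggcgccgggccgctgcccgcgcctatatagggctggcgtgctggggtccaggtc
Neurog2 promoter, chr3:127632886-127633134, plus strand: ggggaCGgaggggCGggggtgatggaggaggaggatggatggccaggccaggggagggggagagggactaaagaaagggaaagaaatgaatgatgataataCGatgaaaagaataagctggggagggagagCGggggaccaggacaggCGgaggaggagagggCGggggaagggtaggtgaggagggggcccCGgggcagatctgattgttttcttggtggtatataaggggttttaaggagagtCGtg
Neurod4 promoter, chr10:130280255-130280504, minus strand: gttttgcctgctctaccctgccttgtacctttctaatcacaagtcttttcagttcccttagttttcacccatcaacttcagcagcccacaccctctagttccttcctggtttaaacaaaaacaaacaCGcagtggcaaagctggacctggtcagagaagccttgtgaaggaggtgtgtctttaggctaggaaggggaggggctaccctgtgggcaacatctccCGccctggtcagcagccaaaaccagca
Olig2 promoter, chr16:91225300-91225456, plus strand: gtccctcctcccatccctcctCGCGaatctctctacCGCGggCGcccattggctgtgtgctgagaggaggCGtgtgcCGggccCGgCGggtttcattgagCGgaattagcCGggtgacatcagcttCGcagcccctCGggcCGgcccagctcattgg

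The Hes5 stretch held TGGGAA 2 times, once on each strand, and 32 CG. Of 32851 RefSeq promoters of the same length, 21.6% held TGGGAA and the median number of CG was 6. Of the 9 members with a RefSeq promoter, only Hes5 held TGGGAA (Olig1 had no entry). CG counts in the full 250 bases before each RefSeq start were 32 in Hes5, 30 in Nkx6-1, 29 in Sox1, 27 in Sox2, 26 in Nkx6-2, 22 in Olig2, 15 at each of the 2 starts of Pax6 and 8 in Neurog2, against 2 and 7 at the 2 starts of Neurod4. Neurod4 therefore had the member promoter with the fewest CG.

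At E10.5 all 10 genes were read, with a wide range of levels per length. On the TPM scale, which divides by gene length, Hes5 was highest (167 ± 64.2, SD, n = 3), followed by Neurog2 (91.5 ± 33.0), Sox2 (80.3 ± 29.0), Olig2 (70.1 ± 31.5), Nkx6-1 (69.1 ± 18.8), Pax6 (61.2 ± 28.8) and Neurod4 (45.9 ± 19.3). Sox1 (15.1 ± 8.18 TPM), Olig1 (9.13 ± 2.76 TPM) and Nkx6-2 (2.83 ± 0.815 TPM) were lower. From Neurog2 down to Neurod4 neighbours in this order differed by less than the larger of their SDs, as did Sox1 and Olig1, whereas Hes5 stood above Neurog2 and Neurod4 above Sox1 by more than 1 SD of either.

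Between E10.5 and E13.5, 9 of the 10 genes fell and Nkx6-2 was not tested. A call needed 2-fold or more and an unadjusted p below 0.001 in edgeR's quasi-likelihood test, and 19.4% of the 15030 genes tested in vivo were called lower in this step. Of the 9 members that passed the filter of 5 CPM (counts scaled to library size) in every library of a group, 6 did so only through E10.5 and so had to be lower elsewhere, which takes the weight from their count. The fitted log2 change ran from −3.94 (SE 0.30) in Sox2 to −9.21 (SE 0.53) in Olig2.

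Neurog2, the proneural bHLH factor of the ventral cord, was at 721, 1013 and 658 normalised counts (counts divided by the median-of-ratios size factor of the library) in the 3 E10.5 libraries. At E13.5 it was at 9.23 and 12.4, a log2 change of −6.28 (SE 0.36, adjusted p = 7.36e-10, edgeR). From P4 on it was at or near 0, with no count in any of the 3 P4 libraries and 3, 1, 2 and 4 counts in all at P13, P21, P56 and 2yr. E13.5 was at least 9.93-fold higher than P4, set against 3 counts over the P4 libraries. In culture the level was 5.23 and 15.3 at DIV0, 3.75 and 0 at DIV7, and 1.16, 1.29 and 0.729 at DIV28. The 3 DIV28+TTX libraries, at 3.87, 9.23 and 12.6, lay above those of DIV28, but Neurog2 was under the filter in culture and was not tested there.

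Neurod4, a bHLH factor that follows the proneural genes during neuronal differentiation, was at 632, 771 and 423 normalised counts at E10.5. It fell to 6.46 and 21.9 at E13.5 (log2 change −5.40, SE 0.37, adjusted p = 1.04e-09, edgeR), with no overlap. Unlike Neurog2, it kept a low level at every later age, between 4.49 and 20.2 normalised counts in all 13 libraries from P4 to 2yr, and from E13.5 to P21 its log2 change was −0.18 (SE 0.45, adjusted p = 0.721, edgeR). At DIV0 it was at 23.5 and 27.5, and both DIV7 libraries and all 3 DIV28+TTX libraries were at 0. DIV0 was at least 11.1-fold higher than DIV7, set against 3 counts over the DIV7 libraries.

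Hes5, the Notch target that holds back neurogenesis, was at 628, 555 and 497 normalised counts at E10.5. It was at 6.46 and 9.87 at E13.5 (log2 change −6.16, SE 0.35, adjusted p = 1.21e-10, edgeR), 4.49, 4.37 and 4.99 at P4, and never over 3.96 from P13 to 2yr. The DIV0 libraries were at 6.53 and 4.59, and no count was seen in any of the 8 libraries of DIV7, DIV28 and DIV28+TTX. DIV0 was at least 10.02-fold higher than DIV28, set against 3 counts over the DIV28 libraries.

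The SoxB1 factors Sox1 and Sox2, which mark neural progenitors and maintain them, fell less steeply. Sox2 was at 602, 801 and 514 normalised counts at E10.5 and 52.6 and 40.8 at E13.5 (log2 change −3.94, adjusted p = 4.5e-09, edgeR). It stayed at 34.8, 56.8 and 28.7 at P4 and then fell to 9.27 and 12.998 at P13. Sox2 was the only member called between P4 and P13 (log2 change −1.80, SE 0.37, unadjusted p = 0.000131, adjusted p = 0.00121, edgeR), where 7.54% of all genes were called lower, and the call was lost without P4 replicate 2 (unadjusted p = 0.00126) or without P13 replicate 1 (0.00641). At P21, P56 and 2yr it lay between 1.34 and 9.67.

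Sox1 was at 244, 443 and 198 normalised counts at E10.5, at 19.4 and 12.9 at E13.5 (log2 change −4.38, SE 0.54, adjusted p = 1.46e-06, edgeR) and at 10.1, 13.1 and 12.5 at P4. At P21 it was at 0, 0 and 11.1, so that 1 library set the mean, and at P56 at 1.38, 14.7 and 9.24. In culture Sox1 was at 13.1 and 6.12 at DIV0 and at 29.0, 20.03 and 34.3 at DIV28, with all DIV28 libraries above both of DIV0. Sox2 went the other way, from 51.0 and 65.8 at DIV0 to 0, 11.95 and 4.38 at DIV28. DIV7 replicates were far apart for both genes, at 3.75 and 28.1 for Sox1 and 3.75 and 51.0 for Sox2.

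Both SoxB1 genes lie inside long noncoding genes, Sox2 in Sox2ot and Sox1 in Sox1ot, and RSEM was run with default settings, which do not use strand, so reads of overlapping genes cannot be told apart with certainty. Sox2ot was at 178 ± 68.1 normalised counts at E10.5 and 18.1 ± 1.88 at E13.5, then at 74.1 ± 22.7 at P4 and 68.0 ± 21.95 at P13, an age at which Sox2 was lower than at P4. Sox1ot was at 40.9 ± 20.5 at E10.5, and its mean was at or under 8.48 in all later groups and cultures.

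Among the homeodomain factors that divide the ventral cord, Nkx6-1, which is needed in motor neuron progenitors, was at 856, 984 and 784 normalised counts at E10.5. It fell to 32.3 and 30.9 at E13.5 (log2 change −4.94, SE 0.22, adjusted p = 1.78e-11, edgeR). It was at 13.46, 19.6 and 9.98 at P4 and 14.9 and 18.6 at P13, and fell again to 2.80, 5.62 and 2.76 at P21. That step was called in Nkx6-1 alone (log2 change −2.20, SE 0.38, unadjusted p = 1.84e-05, adjusted p = 0.000525, edgeR), against 5.8% of all genes called lower between P13 and P21. The libraries of P13 and P21 did not overlap.

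Pax6, a factor of progenitors over most of the cord, was at 467, 639 and 284 normalised counts at E10.5, 29.6 and 23.2 at E13.5 (log2 change −4.30, SE 0.38, adjusted p = 3.13e-08, edgeR), and 17.9, 26.2 and 16.2 at P4. The libraries from P13 on lay between 0 and 8.24, below all of P4. Nkx6-2, the close relative of Nkx6-1 that also patterns the ventral cord and is later used in oligodendrocytes, did not follow. It was at 16.8, 21.4 and 13.7 at E10.5 and 9.23 and 15.4 at E13.5, which overlap, and its highest age was P13 with 21.6 and 22.3. No age reached the filter for Nkx6-2, so it was not tested in vivo. Its 3′ end overlaps an end of Inpp5a, whose mean was between 70.8 and 289 normalised counts over the 11 groups.

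Olig1 and Olig2, neighbouring bHLH genes of motor neuron and oligodendrocyte progenitors, were the 2 members called higher from E13.5 to P4. Olig2 was at 646, 942 and 489 normalised counts at E10.5 and at 0.923 and 1.29 at E13.5, the largest fall among the members (log2 change −9.21, adjusted p = 1.67e-10, edgeR). At P4 it was at 34.8, 19.6 and 38.7, all above E13.5. Olig1 was at 65.7, 95.4 and 72.5 at E10.5, 2.77 and 1.29 at E13.5, and 48.2, 42.6 and 31.2 at P4.

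From E13.5 to P4, 2 of the 9 members tested rose, against 23.8% of all genes called higher, and 1 fell, against 19% called lower. The risers were Olig1 (log2 change 4.57, SE 0.46, adjusted p = 1.88e-07, edgeR) and Olig2 (4.73, SE 0.63, adjusted p = 4.01e-06), and Neurog2 was the member that fell, by at least the bound given above. The E13.5 level of Olig1 rested on 6 counts and that of Olig2 on 4 counts over both libraries.

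Olig1 stayed up at P13 (70.5 and 90.1 normalised counts) and P21 (46.2, 45.0 and 81.5), and was at 24.8, 29.5 and 23.8 at P56 and 26.9 and 32.3 at 2yr. Olig2 was at 23.7 and 35.3 at P13, 12.6, 35.2 and 19.3 at P21, 9.63, 9.38 and 19.8 at P56, and 8.07 and 6.76 at 2yr. Per length, Olig2 was above Olig1 at E10.5, but at P13 Olig1 was at 4.97 ± 1.35 TPM and Olig2 at 1.53 ± 0.573 TPM (n = 2), and at P21 they were at 2.96 ± 0.801 and 0.967 ± 0.458 TPM (n = 3).

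**Figure D1:**
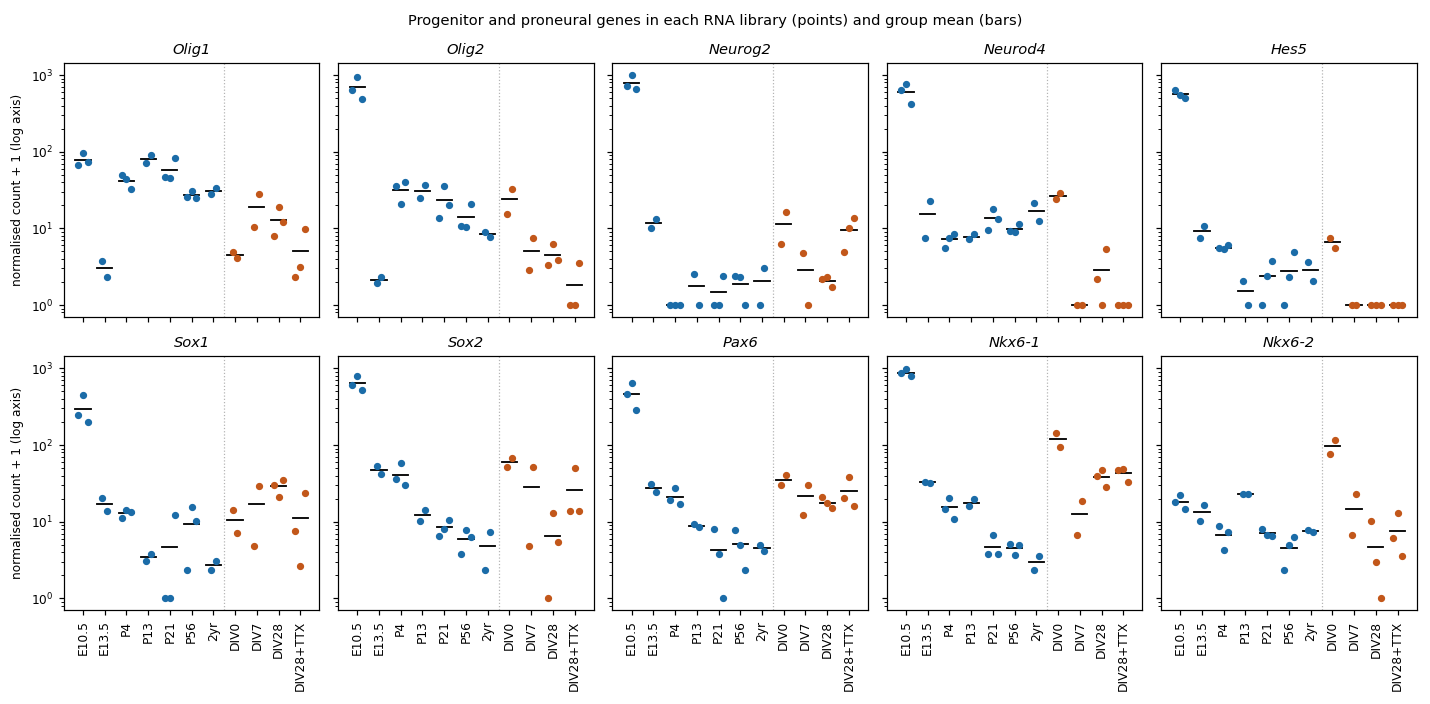
Normalised count plus 1 (log axis) of each of the 10 genes in each RNA library (points) with the group mean (bars), in vivo in blue and in culture in orange. In 9 panels the E10.5 points lie above E13.5, and Nkx6-2 has its highest points at DIV0, at 74.5 and 116 normalised counts. Olig1 and Olig2 are higher at P4 than at E13.5, at 52.2% and 4.48% of their E10.5 means.

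Oligodendrocyte markers moved with Olig1 and Olig2 in some steps. Of the 12 tested, 8 rose and 2 fell from E13.5 to P4, with a median log2 change of 3.37 beside 0.12 over all genes. Mbp (log2 change 4.29, adjusted p = 6.74e-09, edgeR), which encodes a myelin protein, rose, and Sox10 (−1.55, adjusted p = 0.000265) and Pdgfra (−1.48, adjusted p = 0.000792), which mark precursors, fell. From P4 to P13, 10 of the 12 rose and 1 fell, where neither Olig1 nor Olig2 was called, and from E10.5 to E13.5, where both Olig genes fell, 4 rose and 2 fell. The 13 markers summed to 2517 to 3140 normalised counts at P4, 12321 to 12352 at P13, 6770 to 9153 at P21, 2425 to 3666 at P56 and 1787 to 1906 at 2yr, and none of them was at 0 in any of these groups. Astrocyte markers also moved, with 7 of 11 higher and 1 lower from E13.5 to P4 and sums of 1309 to 1404 at E13.5 and 4034 to 4760 at P4. The part of either cell type in the levels of Olig1 and Olig2 was not tested.

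**Figure D2:**
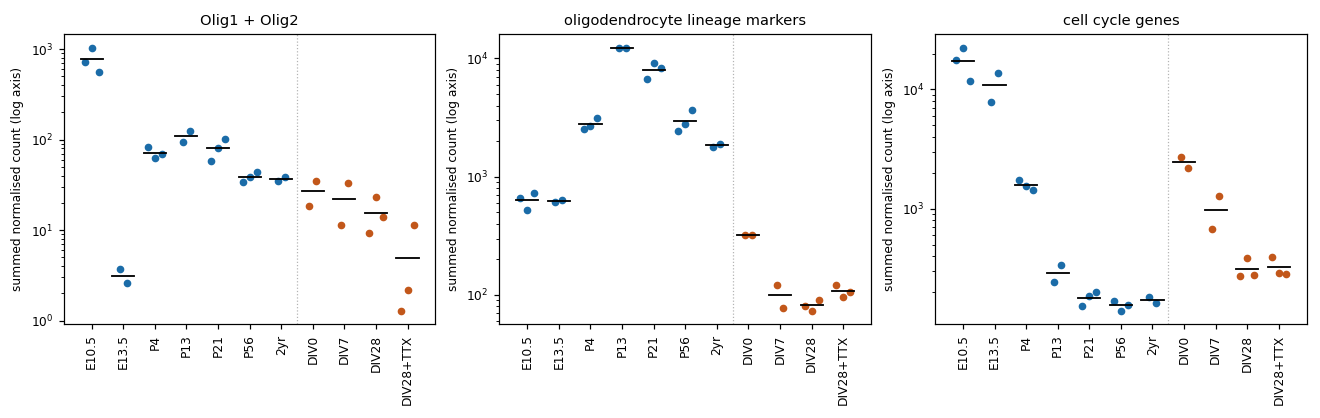
Summed normalised counts (log axis) of Olig1 and Olig2, of 13 oligodendrocyte markers and of 18 cell cycle genes in each RNA library (points), with group means (bars). The oligodendrocyte markers peak at P13, at 12321 and 12352, and the cell cycle genes run down from 11796 to 22446 at E10.5 to 152 to 199 at P21.

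Between P21 and P56, 0 of 9 members were called, where 0.173% of all genes were. Olig1 was the 1 member with an unadjusted p under 0.05 (log2 change −1.15, SE 0.30, unadjusted p = 0.00117, adjusted p = 0.417, edgeR), and DESeq2 called it. In the same step 6 of 12 oligodendrocyte markers fell. Between P56 and 2yr, 0 of 9 members were called by edgeR, 0 by DESeq2 and 0 had an unadjusted p under 0.05, with 0.685% of all genes called.

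Over the longer span from E13.5 to P21, in which every library held nuclear RNA of the same mouse line, 2 members rose and 4 fell of the 9 tested, against 29.8% and 26.3% of all genes. Olig1 (log2 change 5.06, SE 0.46) and Olig2 (4.27, SE 0.67) rose. Sox2 (−2.46, SE 0.40), Pax6 (−2.80, SE 0.61) and Nkx6-1 (−2.89, SE 0.34) fell. Neurog2 also fell, with 39 counts at E13.5 and 1 count at P21, a ratio of 24.6 with a 95% counting interval of 4.16 to 995. The calls of Pax6 and Neurog2 were each lost when any of 3 single libraries was left out, with unadjusted p up to 0.0016 and 0.00421 (edgeR). Those libraries were E13.5 replicate 1 and P21 replicates 2 and 3 for Pax6, and E13.5 replicate 2 and P21 replicates 1 and 2 for Neurog2.

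The other genes of these pathways are given for the same steps. From E10.5 to E13.5 the other factors of progenitor domains fell in 14 of 14 cases, with a median log2 change of −3.19 beside 0.13 over all genes. Ptch1, the Sonic hedgehog receptor, fell by 2.96 on the log2 scale and Gli3, which carries its signal, by 2.16. Among other proneural and neurogenic bHLH factors 5 of 8 fell, including Hes6 (−3.48) and Neurod1 (−2.26), and Neurod6 rose from 0.509 to 129 normalised counts. Of 21 Notch pathway genes 11 fell, with Notch1 at −1.63 and Rbpj at −1.40, and Dll4 (3.05), Hey2 (1.57) and Numb (1.47) rose. Dll4 and Hey2 are also used in vessels, and all 10 blood and vessel markers rose in this step.

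Genes of neural stem cells and radial glia were split, with 9 of 16 lower and 2 higher from E10.5 to E13.5. Vim, which encodes the filament protein vimentin, rose to a mean of 11233 normalised counts at E13.5 (log2 change 1.37) and fell by 3.56 on the log2 scale from E13.5 to P4. Nes, which encodes nestin, had a log2 change of 0.85 (adjusted p = 0.0325, edgeR, not called) and then fell by 2.26. Cell cycle genes fell in 8 of 18 cases from E10.5 to E13.5 and in 18 of 18 from E13.5 to P4, and summed to 7801 to 13832 normalised counts at E13.5 and 1424 to 1734 at P4. Blood and vessel markers moved with these genes, from sums of 19086 to 26961 at E13.5 to 4837 to 6473 at P4, where 7 of 10 were called lower, and their part in the levels at E13.5 was not tested.

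In culture at DIV0, the start of the co-culture, 9 of the 10 genes were lower than at E10.5 and Nkx6-2 was higher, against 24.2% of all genes called lower and 25.2% called higher of 15521. Here 5 of the members passed the filter only through E10.5 and Nkx6-2 only through DIV0, the groups in which they were high, and the method and mouse line differ as well as the source of the cells. Olig2 differed by −4.90 on the log2 scale (SE 0.45), Neurog2 by −6.29 (SE 0.49), Hes5 by −6.60 (SE 0.47), Nkx6-1 by −2.88 (SE 0.28) and Nkx6-2 by 2.46 (SE 0.56, unadjusted p = 0.000219, edgeR). Without E10.5 replicate 1, E10.5 replicate 3 or DIV0 replicate 2 the call of Nkx6-2 was lost, with unadjusted p of 0.00138, 0.00197 and 0.00854.

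Against E13.5, where both sides are nuclear RNA, 3 of the 10 genes were higher at DIV0 and 0 lower, with 15.1% of all genes called higher and 24.3% lower. Nkx6-1 was at 141 and 93.3 normalised counts at DIV0 and 32.3 and 30.9 at E13.5 (log2 difference 1.87, SE 0.31, adjusted p = 2.15e-05, edgeR). Nkx6-2, which passed the filter only through DIV0 and so was tested only because it was high there, was at 74.5 and 116 at DIV0 against 9.23 and 15.4 at E13.5 (2.87, SE 0.65, adjusted p = 0.000622, edgeR). Olig2 was at 14.4 and 32.1 against 0.923 and 1.29 (4.14, SE 0.74, adjusted p = 5.42e-05, edgeR). Without DIV0 replicate 2 only 1 of the 3, Nkx6-1, was still called, and Nkx6-2 was also lost without either E13.5 library. With the library titled DIV0 replicate 3 counted as DIV0 none was called, since Nkx6-2 no longer passed the filter and the unadjusted p (edgeR) was 0.0064 for Nkx6-1 and 0.00103 for Olig2.

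Of the 4 members that passed the filter in culture, Sox2, Pax6 and Nkx6-2 did so only through DIV0, so falls from DIV0 were favoured. From DIV0 to DIV7, 1 of the 4 was called, Nkx6-1, with 2.81% of all genes called lower of 12890. It fell from 141 and 93.3 to 5.63 and 17.9 normalised counts (log2 change −3.24, SE 0.58, unadjusted p = 0.000116, adjusted p = 0.00201, edgeR). The edgeR call was lost without DIV0 replicate 1 (unadjusted p = 0.00157), without DIV7 replicate 1 (0.00152), and with the library titled DIV0 replicate 3 counted as DIV0 (0.00443). Nkx6-2 went from 74.5 and 116 to 5.63 and 21.7 (log2 change −2.73, SE 1.04, unadjusted p = 0.0221, adjusted p = 0.0786, edgeR), with no overlap but no call.

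From DIV7 to DIV28, 0 of 4 members were called, against 7.7% of all genes. Nkx6-1 was at 38.2, 46.2 and 27.7 normalised counts at DIV28, above both DIV7 libraries (log2 change 1.63, SE 0.54, unadjusted p = 0.0105, edgeR). With TTX, 0 of 4 members were called by edgeR and 0 had an unadjusted p under 0.05, against 0.683% of all genes called. Nkx6-1 was at 46.4, 48.3 and 31.6 and Pax6 at 19.3, 36.9 and 15.1 with TTX, against 19.7, 16.5 and 13.9 for Pax6 at DIV28, and both overlapped. Sox2 was at 12.9, 49.4 and 12.6 with TTX, all above DIV28 (log2 change 2.01, SE 0.94, unadjusted p = 0.055, edgeR). Sox1 and Olig1, which were under the filter in culture and not tested, were lower with TTX in all 3 same-numbered pairs. Sox1 was at 6.44, 1.63 and 22.7 with TTX and Olig1 at 1.29, 2.17 and 8.83, and both overlapped DIV28 as groups.

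Set against P21 motor neurons, DIV28 neurons held more Pax6 and Nkx6-1 and less Olig1, Olig2 and Neurod4, so that 2 of 10 genes were higher and 3 lower, beside 13.3% and 13.1% of all genes. Nkx6-1 was at 38.2, 46.2 and 27.7 normalised counts at DIV28 and at 2.80, 5.62 and 2.76 at P21 (log2 difference 3.37, SE 0.41, adjusted p = 6.27e-07, edgeR). Pax6 was at 19.7, 16.5 and 13.9 against 6.99, 2.81 and 0 (2.35, SE 0.61, unadjusted p = 0.000789, edgeR), and Sox1 was just short of the limit (2.89, SE 0.76, unadjusted p = 0.00101). Olig1 was at 6.95, 17.8 and 10.9 at DIV28 (log2 difference −2.10, SE 0.37, adjusted p = 5.81e-05, edgeR), Olig2 at 2.32, 5.17 and 2.92 (−2.40, SE 0.49, adjusted p = 0.000348), and Neurod4 at 1.16, 0 and 4.38 (−3.02, SE 0.73, adjusted p = 0.00163). Oligodendrocyte markers went the way of Olig1 and Olig2, with 10 of 12 lower, 6 of 13 at 0 in all DIV28 libraries, and sums of 73.6 to 91.2. Without P21 replicate 2 only Olig1 and Nkx6-1 were still called, and Pax6 and Neurod4 were lost without P21 replicate 3, DIV28 replicate 1 or DIV28 replicate 2. All 5 calls held without DIV28 replicate 3, and with it counted as DIV0 Olig2 and Pax6 were lost.

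**Figure D3:**
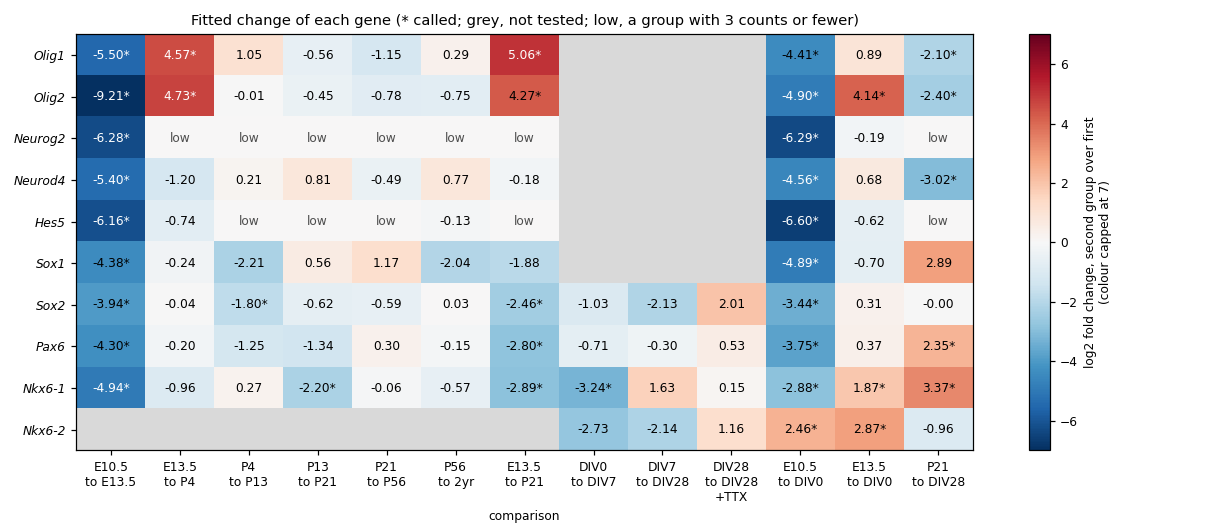
Fitted log2 change of each gene (rows, second group over first) in 13 comparisons (columns), with an asterisk for a call, grey for a gene not tested, and "low" where a group held 3 counts or fewer. The first column is negative in all 9 genes tested, and the columns from P4 to 2yr hold 2 calls.

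The change in culture from DIV0 to DIV28 was compared with the change in tissue from E13.5 to P21 in 1 model. In 8 of the 10 genes the changes differed at an adjusted p under 0.05, in 3 towards the positive in culture and in 5 towards the negative, beside 34.5% and 28.9% of all genes. Nkx6-2 passed the filter only through DIV0, a group of this comparison. A fall in culture was thus favoured by the filter, which takes weight from its call. Olig2 differed most. It went from a mean of 23.2 to 3.47 normalised counts in culture and from 1.11 to 22.4 in tissue, a difference of −6.54 on the log2 scale (SE 0.89, adjusted p = 1.72e-06, edgeR). Pax6 went from 34.3 to 16.7 in culture and from 26.4 to 3.27 in tissue (difference 1.99, SE 0.79, adjusted p = 0.0326, edgeR). Sox2 went from 58.4 to 5.44 in culture and from 46.7 to 7.43 in tissue, and its difference was −0.31 (SE 0.95, adjusted p = 0.795, edgeR). Without P21 replicate 3, or without DIV0 replicate 1, 5 of the 8 differences were still called. The difference of Hes5 was lost in 12 alternatives, among them DESeq2 (unadjusted p = 0.0659) and leaving out DIV28 replicate 3. With that library counted as DIV0, Hes5 (unadjusted p = 0.179, edgeR) and Sox1 (0.0549) were lost and Nkx6-2 no longer passed the filter.

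Accessible regions were read from the peaks that MACS2 called in each ATAC-seq library, which numbered from 80386 to 224328. A promoter was counted as accessible in a group when both libraries had a peak within 500 bp of an annotated start. Of 21938 genes, 62.7% met this at E10.5, 65.6% at E13.5, 63.3% at P4, 63.7% at P13, 63.1% at P21, 61.4% at P56, 62.0% at 2yr, 63.6% at DIV0, 60.4% at DIV7, 63.7% at DIV28 and 63.6% at DIV28+TTX. All 10 members met it at E10.5 and E13.5, 9 at P4, 6 at P13, 7 at P21, 5 at P56, 6 at 2yr, and 9 in each culture group.

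Olig1, Neurog2, Hes5, Pax6 and Nkx6-1 had a peak within 500 bp of a start in all 22 libraries, whatever their RNA. For Neurog2 the peak counted was not always over the promoter stretch shown. In E10.5 replicate 1 it ended before that stretch, at 127632841. At P21, P56 and 2yr it began past the stretch and inside the gene, at 127633156 or later. Neurog2 had fold enrichments, the ratio of the signal at the summit to its local background, of 4.24 and 5.32 at E10.5 and 6.78 and 6.99 at P4, where no RNA was counted. Hes5 was at 3.77 and 6.29 at E10.5 and 2.87 and 3.13 at DIV28, where its RNA was at 0 too. The Nkx6-1 promoter went from 21.9 and 11.2 at E13.5 to 3.22 and 2.82 at 2yr, and was at 12.8 and 8.76 at DIV28. At E10.5, where Nkx6-1 RNA was highest, the merged region that reaches this promoter was at 4.84 and 7.69. Fold enrichments depend on the depth and background of each library, so they are set side by side only.

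Olig2, Sox1 and Neurod4 lost their promoter peaks in tissue. The Olig2 promoter shown above had peaks at 2.58 and 5.12 at E10.5, 11.8 and 4.93 at E13.5 and 4.14 and 3.56 at P4, and none within 500 bp in any of the 8 libraries from P13 to 2yr, while its RNA was read at all those ages. The merged region that reaches this promoter did hold weak peaks farther than 500 bp away in 1 P13 library (2.18) and both P21 libraries (2.00 and 2.48). Sox1 had peaks at all 3 ages up to P4, of 4.03 and 5.84 at E10.5, and none within 500 bp from P13 to 2yr, although the merged region that reaches its promoter held peaks in both P13 libraries (2.32 and 2.18) and in 1 library each at P21, P56 and 2yr. In culture both promoters had peaks in all 8 libraries, with Sox1 at 10.02 and 6.15 at DIV28. Neurod4, the promoter with the fewest CG, had peaks at 2.77 and 3.66 at E10.5 and 2.77 and 2.56 at E13.5, 1 peak at DIV0 (2.68 in replicate 1), and none in any other library. Sox2 had both peaks up to P4, 1 at P13, 2 at P21, 1 at P56 and none at 2yr, and Nkx6-2 lacked a peak only in P56 replicate 1.

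**Figure D4:**
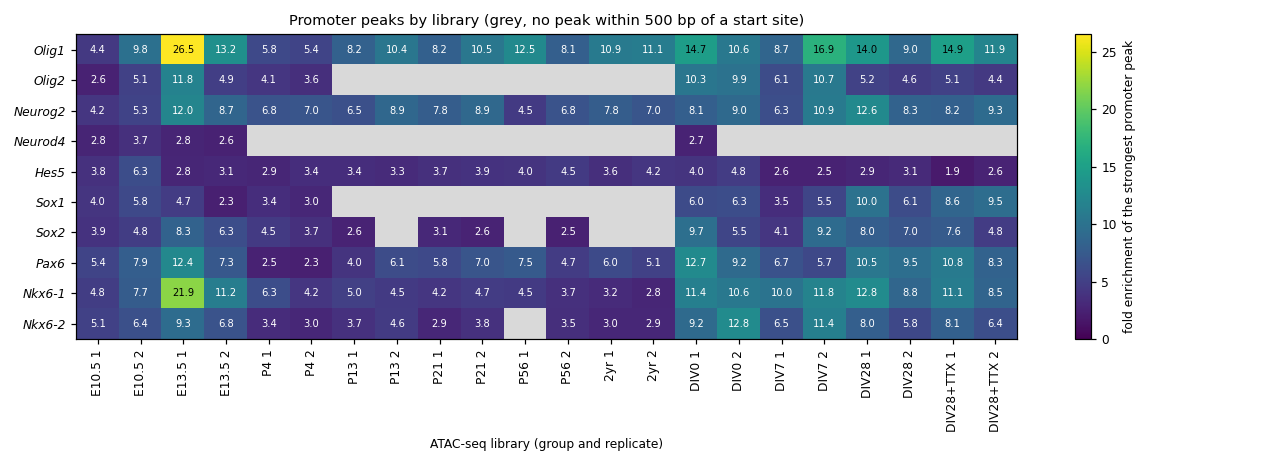
Fold enrichment of the strongest peak within 500 bp of a start of each gene (rows) in each of the 22 ATAC-seq libraries (columns), with grey for no peak. Grey fills Olig2, Sox1 and Neurod4 from P13 to 2yr, and Neurod4 holds 5 peaks in all, at E10.5, E13.5 and DIV0.

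Peaks of all libraries were merged into 565983 regions, of which 279 had a summit within 50 kb of a member. A region was open in a group when both libraries had a peak in it. Near the members 46 regions (16.5%) were open at E10.5 and in neither P21 library, beside 2.67% of all regions, and 17 (6.09%) were open at P21 and in neither E10.5 library, beside 14.8%. Losses were found near 9 of the 10 genes, with 9 near Neurod4, 8 near Pax6, 6 each near Neurog2 and Sox1 and 5 near Sox2. Olig1 and Hes5 had 4 each, Olig2 had 3 and Nkx6-1 had 2. Hes5 gained 4 and Nkx6-1 gained 2, as many as each lost. Gains were 3 near Neurod4, 1 each near Neurog2 and Sox2, and 0 near Olig1, Olig2, Sox1 and Pax6. Near Nkx6-2 0 of 41 regions were lost and 6 (14.6%) gained, shares near those of all regions. Sox1 had 7 open regions at E10.5 and 0 of 24 at P21, P56 and 2yr.

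In culture 28 of the 279 regions were open at DIV0 and in neither DIV28 library, beside 4.02% of all, and 25 (8.96%) the other way round, beside 15.1%. Near Nkx6-1 5 of 25 regions were lost and 0 gained, and near Nkx6-2 4 of 41 (9.76%) were lost and 8 (19.5%) gained. E10.5 had the fewest open regions of all groups over the genome, 47128 against 131875 at E13.5, and the part of peak number in these differences was not tested. Near Nkx6-1, 14 of 25 regions were open at E13.5 and 3 at E10.5.

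**Figure D5:**
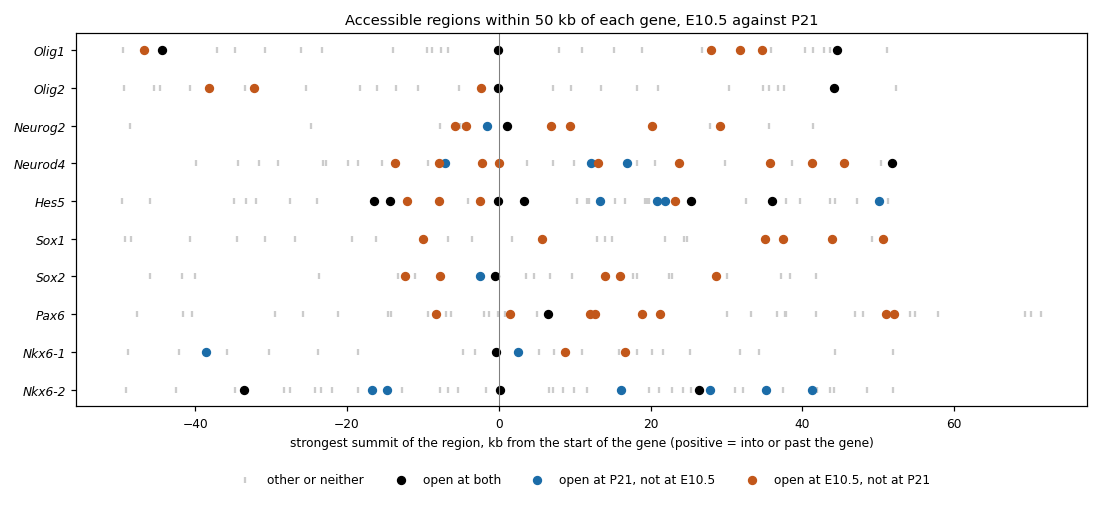
Merged ATAC-seq regions near each gene (rows) by the distance of the strongest summit from the start of the gene in kb, coloured by whether both libraries had a peak at E10.5, at P21, at both, or otherwise. Of the 279 regions, 46 are open at E10.5 only (orange) and 17 at P21 only (blue), and Nkx6-2 has none of the first kind.

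A set of 3 distal regions differed in when they were open, and 201 bases around the strongest summit of each are shown, on the plus strand of the same build. Capitals mark CANNTG on either strand, the E-box letters that bHLH factors bind. The first lies 6907 bp downstream of the Neurog2 start between genes, the second 21940 bp downstream of the Sox1 start within Sox1ot and outside its exons, and the third 44287 bp downstream of the Nkx6-1 start between genes.

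Neurog2 region, chr3:127639942-127640142: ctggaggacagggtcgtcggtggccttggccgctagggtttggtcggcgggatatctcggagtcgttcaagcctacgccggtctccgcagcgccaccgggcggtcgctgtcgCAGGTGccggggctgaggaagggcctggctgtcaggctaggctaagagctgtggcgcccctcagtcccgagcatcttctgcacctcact
Sox1 region, chr8:12417135-12417335: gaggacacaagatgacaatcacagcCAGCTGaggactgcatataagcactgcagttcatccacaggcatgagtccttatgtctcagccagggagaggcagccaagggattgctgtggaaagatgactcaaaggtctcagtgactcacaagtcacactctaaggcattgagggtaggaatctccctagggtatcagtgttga
Nkx6-1 region, chr5:101620609-101620809: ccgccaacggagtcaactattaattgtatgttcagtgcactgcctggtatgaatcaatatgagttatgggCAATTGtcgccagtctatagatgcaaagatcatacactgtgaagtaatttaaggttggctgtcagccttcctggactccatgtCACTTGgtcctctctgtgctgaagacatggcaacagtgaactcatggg

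The Neurog2 region had peaks in both libraries of E10.5 (fold enrichment 4.04 and 4.75), E13.5 (17.9 and 8.40) and DIV0 (11.9 and 14.4), in 1 of 2 at DIV7 (3.52), and in no other library. The stretch held 1 CANNTG, as did 69.5% of 565976 regions in windows of this size, and 18 CG. The Sox1 region was found in the culture libraries of DIV7 (4.83 and 7.92), DIV28 (20.1 and 8.20) and DIV28+TTX (15.2 and 8.14), and in none of DIV0 or of any age in vivo. Another region at −19296 bp from the Sox1 start had the same groups, with 16.3 and 8.93 at DIV28.

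The Nkx6-1 region was found at E13.5 (26.2 and 19.98) and P4 (6.30 and 2.74) and in no other library, and its stretch held 2 CANNTG. The region at −18559 bp, upstream of Nkx6-1, was open at E13.5 (27.0 and 13.1) and DIV0 (4.54 and 9.44) and had 1 peak at DIV7. Near Neurod4 a region at −2154 bp from the start was open at E10.5 (6.34 and 9.63), E13.5 (7.68 and 8.67) and DIV0 (9.58 and 5.27) and in no other library. The Neurod4 promoter had both peaks at E10.5 and E13.5, but a peak in only 1 of the 2 DIV0 libraries. By contrast, a region past the end of Hes5, 3337 bp from its start, carried a peak in all 22 libraries. Its fold enrichment was lowest at E10.5 (2.90 and 3.63) and highest at E13.5 (21.03 and 14.14). From P4 to 2yr it lay between 6.17 and 8.85. At DIV28, where Hes5 RNA was at 0, it was 12.8 and 9.74. Whether this region belongs to Hes5 or to a neighbouring gene was not tested.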

How the data were processed

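RNA-seq (28 libraries) and ATAC-seq (22 libraries) of mouse spinal motor neurons were used as deposited. Expected counts per gene were made by the authors with RSEM 1.3.0 on STAR 2.5.2b alignments to mm10. TPM values are RSEM's own, as deposited, and served only to compare levels between genes. Peaks were called by the authors in each library with MACS2 2.2.7.1 at p 0.01, and the deposited peak files give the fold enrichment, a ratio of signal to local background, and −log10 p and q of each peak. Tool versions are those of the submitters' processing notes.

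Expected counts were rounded and tested with edgeR 4.0.16 (R 4.3.3), TMM scaling and the quasi-likelihood test, with Benjamini-Hochberg adjustment over all genes that reached 5 CPM in every library of at least 1 group (15030 in vivo, 12890 in culture, 15521 for both). DESeq2 1.42.0 was an alternative. Levels are normalised counts, scaled by size factors (median of ratios) fitted over all 28 libraries. A change was called at an unadjusted p under 0.001 with 2-fold or more, and an unequal change at an adjusted p under 0.05. Folds against a group with no counts were set against 3 counts over the group, and ratios with 1 to 3 counts carry exact 95% intervals, all for counting error only. The script was checked on drawn counts with known changes.

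The members and gene lists were chosen with earlier results of these data known. Named genes of each list were the 2 with the highest mean over the groups compared and up to 3 called against the majority of the list, and 1 gene that this rule names is not reported here. In vivo libraries came from pooled animals, and nothing says whether culture libraries came from separate differentiations, so p-values measure the spread between these samples. By the correlation of same-numbered libraries, the replicate numbers paired DIV28 with DIV28+TTX (correlations of deviations from the group means of 0.629, 0.535 and 0.706 over 13129 genes). Peaks were merged over libraries into regions, kept by summit within 50 kb of the body of a member gene. The alternatives were other scalings, filters, tools, windows and peak limits, and leaving out each library.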

Additional observations from a re-analysis of the deposited data

Results flagged for a closer look

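The changes from DIV0 to DIV28 in culture and from E13.5 to P21 in tissue were tested against each other, and 8 of the 10 genes differed at an adjusted p under 0.05 (edgeR). Values are the log2 change in culture minus that in tissue, beside mean normalised counts. Olig2 differed by −6.54, with means of 23.2 and 3.47 in culture and 1.11 and 22.4 in tissue. Its E13.5 level rested on 4 counts over both libraries. Olig1 differed by −2.999, with 3.49 and 11.9 against 2.03 and 57.6. Its levels rested on 5 counts at DIV0 and 6 at E13.5, and the call was lost in some alternatives. Neurod4 differed by −3.70, with 25.5 and 1.84 against 14.2 and 12.6. Nkx6-2 differed by −3.82, with 95.4 and 3.74 against 12.3 and 6.05, and passed the filter only through DIV0, where it was high. Hes5 differed by −3.13, with 5.56 and 0 against 8.17 and 1.39, and since its DIV28 libraries were at 0 this fitted value depends on the prior count, and the call was lost in 12 alternatives.

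In the other direction, Sox1 differed by 3.59, with means of 9.59 and 27.8 in culture and 16.1 and 3.68 in tissue, and lost its call with DIV28 replicate 3 counted as DIV0 (unadjusted p = 0.0549, edgeR). Pax6 differed by 1.99, with 34.3 and 16.7 against 26.4 and 3.27. It lost its call in several alternatives, among them without P21 replicate 3 (unadjusted p = 0.0587, edgeR). Nkx6-1 differed by 1.498, with 117 and 37.4 against 31.6 and 3.73. Its call was also lost in several, among them without P21 replicate 1 or P21 replicate 3.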

How the results depend on the processing

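Of 559 values of the 47 called member changes under the alternatives, 504 kept sign and call, 55 kept the sign and lost the call, and 0 changed sign. The 49 sign changes lay among 723 values that were not called. Of 255 counts, 218 stayed within 1.5 times. With no filter on low counts, 5 members were called from E13.5 to P4, 3 between P4 and P13, 1 from P21 to P56 and 2 from DIV0 to DIV7. With DESeq2, 1 was called from P21 to P56, and with an adjusted p under 0.05 as the limit 3 from P4 to P13. With only the compared groups in the fit and its filter, fewer members were tested, and 1 of 3 tested was called from E13.5 to P4, 0 of 1 from P13 to P21, 3 of 3 from E13.5 to P21, 2 of 4 from DIV0 to DIV7 and 1 of 1 between P21 and DIV28, with 2 of 5 unequal changes. That setting gave no value from P56 to 2yr and from DIV7 to DIV28. With DIV28 replicate 3 counted as DIV0, 0 were called from DIV0 to DIV7, 0 between E13.5 and DIV0, 3 between P21 and DIV28, and 5 unequal changes.

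Leaving out each library in turn gave 0 to 1 calls from P4 to P13, 0 to 1 from P21 to P56 (1 without P21 replicate 2), 0 to 1 from DIV0 to DIV7, 1 to 3 between E13.5 and DIV0, 2 to 5 between P21 and DIV28, and 5 to 7 unequal changes. Regions open at E10.5 and not at P21 numbered 48 to 89, with 89 without E10.5 replicate 1 and 72 without E10.5 replicate 2, and those open at DIV28 and not at DIV0 26 to 49, with 49 without DIV28 replicate 2. Fewer libraries make a region open more readily by construction.

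Among peaks, the 70000 strongest of each library left 6 promoters at E13.5, 6 regions open at P21 and not E10.5, and 13 open at DIV28 and not DIV0. A −log10 q of at least 2 left 25 regions open at E10.5 and not P21, as did a peak cover of at least 50% of the region (25). With a 100 kb window 35 regions were open at P21 and not E10.5, 51 at DIV0 and not DIV28, and 41 the other way round. The planned 50% overlap of a peak with its region is met by every peak by construction.

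The replicate block changed no call between DIV28 and DIV28+TTX, where the numbers pair the libraries. In the other comparisons the samples share only a number, and under the block 7 unequal changes were called. Median-of-ratios scaling moved the log2 changes of the tested members by a median of 0.10 from E10.5 to E13.5 and of −0.11 from E13.5 to P4. Levels of a few counts, as for most members after P13, limit what could be seen.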

Other observations

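For each member the genes whose log2 normalised counts followed it most closely over the 28 RNA libraries are given as a description, since depth and the step from E10.5 are shared by all genes. Hes5 was closest to Elavl1 (Pearson r of 0.953) and Sox3 (0.951). Neurod4 was closest to Sapcd2 (0.944), Pax6 to Celsr1 (0.946), Nkx6-1 to Eno1 (0.945), Neurog2 to Maz (0.937), Sox2 to Pcgf3 (0.913), Olig2 to Cbfa2t2 (0.901), Olig1 to Snx27 (0.900) and Sox1 to Alg10b (0.877). Nkx6-2 had the least close neighbour, P4ha1 (0.770). Among the members themselves the highest value was between Pax6 and Nkx6-1 (0.922) and the lowest between Olig1 and Nkx6-2 (−0.0970).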
